A study of Mus musculus with 6 samples.

Results

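Lipid droplets are the organelles in which macrophages store neutral lipid, and the 9 genes described here encode proteins that coat them, fill them and empty them. The genes were chosen by name: the droplet coat genes Plin2 and Plin3, the lipolysis genes Pnpla2, Lipe, Abhd5, G0s2 and Mgll, and the triacylglycerol synthesis genes Dgat1 and Dgat2. All 9 were found among the 52459 gene symbols of the count table, and all 9 passed the filter on low counts. RNA was sequenced from C57BL/6 mouse bone marrow derived macrophages grown with GM-CSF, a myeloid growth factor. The groups were 3 libraries of cells that received piceatannol overnight at day 7 of culture (piceatannol libraries) and 3 libraries of cells that received vehicle instead (control libraries). Piceatannol is a plant stilbene used to block Syk, a kinase of immune receptors, and the labels used here give neither its dose nor the vehicle.

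Triacylglycerol is made at the endoplasmic reticulum, where the enzymes DGAT1 and DGAT2 add the last fatty acid, and it is packed into droplets whose surface is covered by perilipins. Fatty acids are released stepwise: adipose triglyceride lipase (Pnpla2) cuts triacylglycerol, hormone-sensitive lipase (Lipe) cuts diacylglycerol and cholesteryl ester, and monoacylglycerol lipase (Mgll) cuts the last ester bond. Adipose triglyceride lipase is switched on by its coactivator ABHD5 and blocked by the small inhibitor protein G0S2. In macrophages such droplets are known from foam cells and as a source of fatty acids for lipid mediators.

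With piceatannol, 6 of the 9 genes rose and 3 fell. The coat genes Plin2 and Plin3 and the synthesis gene Dgat1 rose by more than 2-fold, as did 17.5% of all genes tested, and Pnpla2, Abhd5 and Mgll rose by less. Lipe and G0s2 fell by more than 2-fold, as did 16.6% of all genes tested, and Dgat2 by less. Of all 15380 genes tested, 77% were called in either direction, 38.8% higher and 38.3% lower, so that a call alone does not set these genes apart. The largest adjusted p among the 9 was 0.000108, that of Mgll (from the quasi-likelihood test of edgeR, Benjamini-Hochberg adjusted over all genes tested, with a threshold of 0.05). The groups did not overlap in any of the 9, as in 79% of all genes tested (39.9% of all higher and 39.2% of all lower with piceatannol). The median log2 fold change was 0.63 over the 9 genes and 0.01 over all genes tested.

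**Figure D1:**
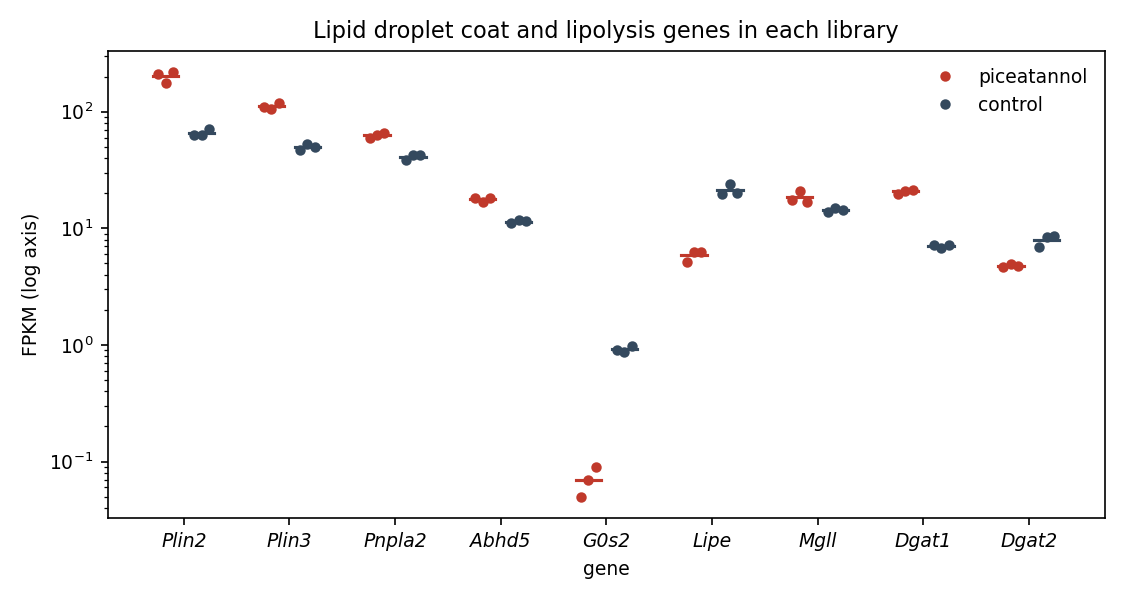
Level of each gene in each library, in FPKM on a log axis, with 3 piceatannol libraries (red) left of 3 control libraries (dark blue) and a bar at each group mean. No gene's groups overlap; G0s2 lies far below the others, at a mean of 0.07 FPKM with piceatannol and 0.917 FPKM in control.

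The piceatannol libraries held 33276569 to 49283203 counts and the control libraries 43586270 to 58697084. Whether replicate libraries stem from different mice or dishes is not in the labels, and the p-values reflect only their spread, which may be technical. The libraries correlated at Pearson's r of 0.994 to 0.997 within groups over 10450 genes, which are not independent replicates. None stood apart by this measure. Control replicate 2 had the highest summed level of neutrophil markers among the control libraries, as given with G0s2 below. Mitochondrially encoded genes took 2.15% ± 0.431 of counts with piceatannol and 0.82% ± 0.0447 in control (SD, n = 3 each). Without them 6 of the 9 genes still rose and 3 fell, but leaving out so small a share could hardly move the values. What lies behind the difference in share was not tested. CPM is a count relative to the scaled library size. The macrophage markers were all detected, with Lyz2 (lysozyme) at 10224 ± 830 CPM with piceatannol and 14876 ± 1791 CPM in control (SD, n = 3 each), while 2 of the 10 rose, Cd14 (log2 fold change 1.93) and Cd68 (1.11), and 8 fell, led by Fcgr1 (-3.35), Itgam (-2.13) and Adgre1 (-1.98). Their summed level was 13840 to 15313 CPM with piceatannol and 19767 to 23730 CPM in control. Dendritic cell markers fell in 7 of 8 cases, led by Cd209a (-5.51), Ccl17 (-3.62) and Flt3 (-2.30), with a summed level of 1435 to 1785 CPM with piceatannol and 4410 to 4705 CPM in control. Stromal cell markers fell in 4 of 6 cases, led by Cxcl12 (-3.35), Col3a1 (-2.56) and Col1a1 (-2.04), with Kitl (1.51) higher and a summed level of 322 to 354 CPM with piceatannol and 1278 to 1362 CPM in control. Of 5 mast cell markers, 2 had no count in any library, 1 was tested and fell, and the summed level was 0.0819 to 0.166 CPM with piceatannol and 1.59 to 2.48 CPM in control. Beside these marker counts, 38.8% of all genes tested were called higher and 38.3% lower. In such bulk libraries fewer cells of a type and less RNA per cell cannot be told apart, and the part that a changed mixture of cells has in the values below was not tested.

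The promoters were compared because the genes moved in both directions. RefSeq promoter windows on GRCm38.p6, from 250 bases before to 50 after the start, were matched by symbol for 7 of the 9 genes. Lipe and Mgll had 2 each, 9 windows in all, and Dgat1 and Dgat2 are not shown. In the Pnpla2 window and the second Lipe window, the bases just after the start matched no GENCODE M21 transcript of the gene. The starts of both Lipe windows (25395987 and 25390112) and of Plin3 (56290511) lay well inside the gene spans given below. The 250 bases before the start are given, 5′ to 3′ on the gene's strand, for the coat gene that rose most and for the first windows of the genes that fell most. They are Plin2 (chr4:86670060-86670309, minus strand), Lipe (chr7:25395988-25396237, minus strand) and G0s2 (chr1:193273189-193273438, minus strand), and capitals mark letters of the motifs searched.
Plin2: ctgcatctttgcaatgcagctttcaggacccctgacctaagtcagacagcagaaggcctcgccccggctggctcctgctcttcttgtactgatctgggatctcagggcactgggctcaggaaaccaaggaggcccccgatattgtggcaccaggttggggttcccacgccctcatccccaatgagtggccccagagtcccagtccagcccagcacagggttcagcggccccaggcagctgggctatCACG
Lipe: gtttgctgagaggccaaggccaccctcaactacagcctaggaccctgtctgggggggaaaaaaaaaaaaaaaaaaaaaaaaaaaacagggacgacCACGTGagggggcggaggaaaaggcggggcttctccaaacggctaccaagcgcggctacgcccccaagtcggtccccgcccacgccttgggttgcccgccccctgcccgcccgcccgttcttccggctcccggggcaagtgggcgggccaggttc
G0s2: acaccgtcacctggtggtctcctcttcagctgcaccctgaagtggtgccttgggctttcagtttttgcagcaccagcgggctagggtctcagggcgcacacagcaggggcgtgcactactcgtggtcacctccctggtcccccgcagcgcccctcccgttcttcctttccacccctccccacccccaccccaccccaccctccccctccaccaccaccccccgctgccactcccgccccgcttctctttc

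The letters CACGTG, the E-box of TFEB and MYC family factors, were found in 3 of the 9 windows, those of Plin2, Lipe and Mgll, and in 7.17% of all 32544 promoter windows of distinct sequence in the table. This motif reads the same on both strands, and both were searched. It is set in capitals with 25 bases on either side; in Plin2 it starts 4 bases before the start and runs across it, in Lipe it starts 155 bases before and in the first Mgll window 44 bases before. The stretches are chr4:86670033-86670088 (minus strand), chr7:25396112-25396167 (minus strand) and chr6:88724343-88724398 (plus strand).
Plin2: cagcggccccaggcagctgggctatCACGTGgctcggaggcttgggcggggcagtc
Lipe: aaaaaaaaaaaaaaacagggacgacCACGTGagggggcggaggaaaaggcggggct
Mgll: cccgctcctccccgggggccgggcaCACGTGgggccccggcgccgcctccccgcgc

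Of these genes Plin2 and Mgll rose and Lipe fell, so the letters stood in windows of genes that moved in either direction. The shorter letters ACGTG, the core of the hypoxia response element, lie within CACGTG; they stood in those 3 windows and in the second Mgll window, and in 19.7% of all windows. GTAAACA, a FOXO element, stood in the second Lipe window, in the first Mgll window and in 3.66% of all windows. TGACNNNGC, the core of the antioxidant response element, stood in 0 of the 9 and in 12.4% of all windows. A match describes letters only, and these windows bear on no binding.

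Plin2 encodes perilipin 2, the main droplet coat protein of macrophages, and lies at chr4:86648386-86670060 on the minus strand (GRCm38, GENCODE M21, as for all gene positions). Its CACGTG lies across the start of the gene. Its level, in FPKM, the authors' count per length of gene and per sequencing depth, was 209.41, 177.81 and 219.14 FPKM in the piceatannol libraries, against 63.63, 63.49 and 71.08 FPKM in the control libraries. Every piceatannol library was thus above every control library, and the lowest piceatannol value was more than 2-fold the highest control value. The log2 fold change was 1.64 ± 0.08 (SE; adjusted p = 8.88e-13), a 3.11-fold rise. Plin2 was the most abundant of the 9 genes per length in both groups. Its mean FPKM stood above that of 98.8% of tested genes with piceatannol and of 95.2% in control.

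Plin3 encodes perilipin 3, a coat protein that moves between the cytosol and nascent droplets (chr17:56277476-56292873, minus strand). It stood at 109.42, 105.49 and 119.56 FPKM in the piceatannol libraries, against 47.25, 53.24 and 50.28 FPKM in the control libraries, with no overlap. The log2 fold change was 1.17 ± 0.06 (SE; adjusted p = 1.36e-12), a 2.25-fold rise. The coat genes rose unequally: the ratio of Plin2 to Plin3 in FPKM was 1.91, 1.69 and 1.83 with piceatannol, against 1.35, 1.19 and 1.41 in control, and these ranges did not overlap.

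The other perilipin genes were near the limit of detection. Plin5, which encodes the perilipin of oxidative tissues, had 10, 13 and 13 counts in the piceatannol libraries and 0 in each control library. Set against a floor of 3 counts over the control group, it was at least 15.1-fold higher. It passed the filter on low counts only through the piceatannol libraries, and it was picked out after its values were seen. Plin1, the adipocyte perilipin, had 0 counts in all with piceatannol and 1 in control, and Plin4 had 12 counts with piceatannol and 28 in control, so neither was tested. Plin2 made up 64.3% ± 1.49 of the summed FPKM of the 5 perilipin genes with piceatannol and 56.8% ± 2.15 in control (SD, n = 3 each), and Plin3 nearly all the rest.

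Pnpla2 encodes adipose triglyceride lipase, the enzyme of the first step of lipolysis (chr7:141455198-141460743, plus strand). It had 59.61, 63.35 and 65.18 FPKM with piceatannol, against 38.49, 42.68 and 42.39 FPKM in control, again without overlap. The log2 fold change was 0.63 ± 0.06 (SE; adjusted p = 1.01e-08), a 1.55-fold rise. The size of this change was near the middle of all tested genes, of which 47.1% changed by less.

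Abhd5 encodes the coactivator of that lipase, also called CGI-58 (chr9:122351608-122381524, plus strand). Its values were 18.32, 16.93 and 18.19 FPKM with piceatannol, against 11, 11.74 and 11.54 FPKM in control, and the groups did not overlap. It rose 1.58-fold, a change of 0.66 ± 0.06 in log2 units (SE; adjusted p = 4.66e-09). Lipase and coactivator transcripts stood in a like proportion: the ratio of Abhd5 to Pnpla2 in FPKM was 0.307, 0.267 and 0.279 with piceatannol, against 0.286, 0.275 and 0.272 in control. These ranges overlapped, which does not show that the ratio was equal.

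G0s2 encodes the inhibitor of the same lipase, a short protein from a compact gene (chr1:193272161-193273217, minus strand), and its promoter window held none of the letters searched. It had only 2, 2 and 4 counts in the piceatannol libraries, against 42, 33 and 50 counts in the control libraries. G0s2 was therefore scarce in control cells, at 0.917 ± 0.0503 FPKM, and close to the limit of detection with piceatannol, at 0.07 ± 0.02 FPKM (SD, n = 3 each). Summed over libraries and relative to the scaled library sizes, its level with piceatannol was 12.4-fold lower. The exact binomial interval of 95%, from 6.12 to 29.4, covers counting error only. The log2 fold change was -3.58 ± 0.46 (SE; adjusted p = 5.34e-07), further from 0 than that of 97.1% of tested genes. It passed the filter on low counts through the control libraries, where it is high.

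Several measurements bear on how the G0s2 value is read. The gene lies wholly inside Lamb3, which runs on the other strand, and no strand setting of the counting is given here. G0s2 shares 0 exonic bases with Lamb3, and Lamb3 itself, a laminin gene, averaged 2.59 CPM with piceatannol and 5.50 CPM in control and fell by 1.08 on the log2 scale. Neutrophil markers, fixed because neutrophils grow from the same marrow, fell in 9 of the 10 tested of 12, as did 38.3% of all genes tested. They were led by S100a9 (-4.56), Ltf (-4.30) and Ngp (-4.16), and their summed level was 639 to 672 CPM with piceatannol and 884 to 1118 CPM in control. Most of that sum in every library but control replicate 2 was Mmp8, a collagenase gene singled out after its values were seen. Mmp8 was not called and averaged 595 ± 19.5 CPM with piceatannol and 559 ± 72.9 CPM in control (SD, n = 3 each). In control replicate 2 it had 476 CPM. The other 11 markers summed to 54.3, 62.1 and 52.9 CPM in the piceatannol libraries, against 295, 641 and 404 CPM in the control libraries. Of the defining markers, Ly6g had 3 counts with piceatannol and 12 in control. The part of either in the fall of G0s2 was not tested. On the log2(FPKM + 1) scale the difference of G0s2 was -0.84, since the pseudocount exceeds its level.

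The G0s2 transcript was thus scarce beside that of its target in both groups. The ratio of G0s2 to Pnpla2 in FPKM was 0.000839, 0.0011 and 0.00138 in the piceatannol libraries, against 0.0236, 0.0204 and 0.0229 in the control libraries. Written as a percentage, G0s2 stood at 0.111% of Pnpla2 with piceatannol and at 2.23% in control. The coactivator to inhibitor ratio, Abhd5 to G0s2, ranged from 202 to 366 with piceatannol and from 11.9 to 13.5 in control. These ratios rest on the few G0s2 counts above.

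**Figure D2:**
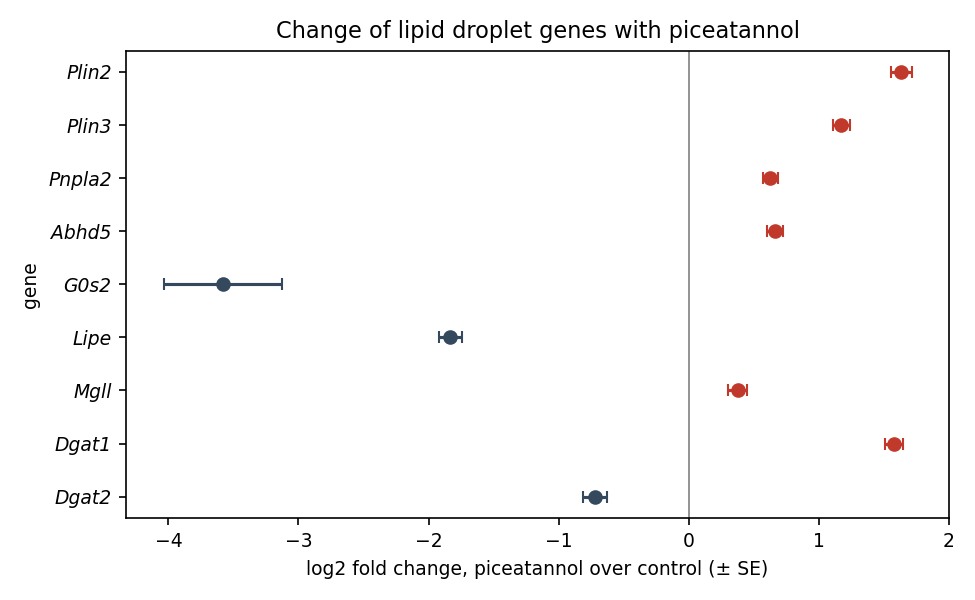
Log2 fold change of each gene, piceatannol over control, with its standard error from the edgeR fit on 3 against 3 libraries. Plin2, Plin3, Pnpla2, Abhd5, Mgll and Dgat1 lie right of 0, and G0s2, Lipe and Dgat2 lie left of it; G0s2 has the widest error, 0.46.

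Lipe encodes hormone-sensitive lipase (chr7:25379527-25398710, minus strand) and, like Plin2, has CACGTG in a promoter window. It had 5.13, 6.21 and 6.25 FPKM in the piceatannol libraries, against 19.6, 23.86 and 20.18 FPKM in the control libraries. All piceatannol values lay far below the lowest control value. The log2 fold change was -1.83 ± 0.09 (SE; adjusted p = 9.47e-12), a 3.56-fold fall. Its counts were ample, 1221 to 1827 with piceatannol and 6101 to 7032 in control. An antisense gene, 4732471J01Rik, spans the whole of Lipe and shares 918 of its 5886 exonic bases, but it held only 8 to 17 counts with piceatannol and 8 to 18 in control.

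Mgll encodes monoacylglycerol lipase, the enzyme of the last step (chr6:88724412-88828360, plus strand). It had 17.35, 20.9 and 16.88 FPKM with piceatannol, against 13.75, 14.88 and 14.4 FPKM in control. The groups were separate but close. Its rise of 1.30-fold was the smallest change among the 9, a change of 0.38 ± 0.07 in log2 units (SE; adjusted p = 0.000108).

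The hydrolases of the successive steps therefore moved apart. Pnpla2 transcripts were 11.6, 10.2 and 10.4 times as abundant per length as Lipe transcripts in the piceatannol libraries, against 1.96, 1.79 and 2.10 times in the control libraries. Of the summed FPKM of Pnpla2, Lipe and Mgll, Lipe made up 6.73% ± 0.43 with piceatannol and 27.6% ± 1.57 in control, and Pnpla2 72.2% ± 1.93 with piceatannol and 53.7% ± 1.33 in control (SD, n = 3 each). The share of Mgll was 21.1% ± 1.99 with piceatannol and 18.7% ± 0.432 in control. These sums were chosen after the values were seen.

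Dgat1 encodes an acyltransferase of the last step of triacylglycerol synthesis (chr15:76502015-76511953, minus strand). It had 19.59, 21.06 and 21.47 FPKM in the piceatannol libraries, against 7.15, 6.72 and 7.21 FPKM in the control libraries. The groups lay far apart relative to their spread, and the 2.99-fold rise gave a change of 1.58 ± 0.07 in log2 units (SE; adjusted p = 3.41e-14). Dgat2, an enzyme unrelated to it in sequence that carries out the same reaction (chr7:99153658-99182719, minus strand), moved the other way. It had 4.65, 4.98 and 4.71 FPKM with piceatannol, against 6.98, 8.4 and 8.59 FPKM in control, a change of -0.72 ± 0.09 in log2 units (SE; adjusted p = 4.51e-07) and a 1.65-fold fall. The ratio of Dgat1 to Dgat2 in FPKM was 4.21, 4.23 and 4.56 with piceatannol, against 1.02, 0.8 and 0.839 in control.

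**Figure D3:**
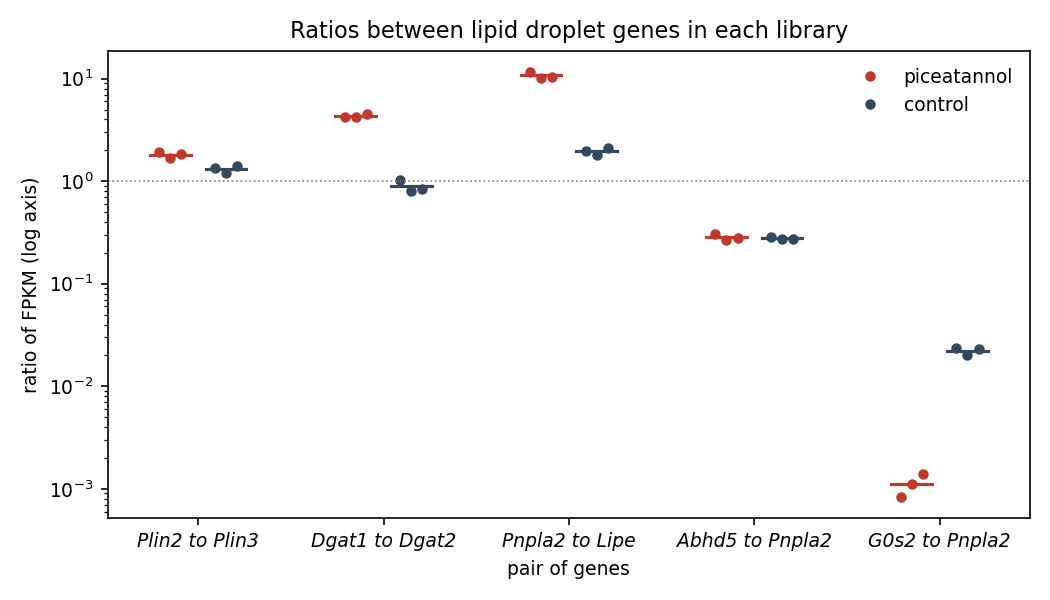
Ratio of FPKM between pairs of genes in each library on a log axis, with 3 piceatannol libraries (red) left of 3 control libraries (dark blue) and a bar at each group mean; the dotted line marks a ratio of 1. The groups are apart for Plin2 to Plin3, Dgat1 to Dgat2, Pnpla2 to Lipe and G0s2 to Pnpla2, and overlap for Abhd5 to Pnpla2.

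The order of the levels differed in places between the groups. With piceatannol it ran, by mean FPKM, Plin2, Plin3, Pnpla2, Dgat1, Mgll, Abhd5, Lipe, Dgat2 and G0s2, where the neighbours Dgat1 and Mgll, and Mgll and Abhd5, overlapped between libraries. In control it ran Plin2, Plin3, Pnpla2, Lipe, Mgll, Abhd5, Dgat2, Dgat1 and G0s2, where only Dgat2 and Dgat1 overlapped. Lipe was thus 7th with piceatannol and 4th in control, and Dgat1 4th with piceatannol and 8th in control. Apart from G0s2, the coefficient of variation of CPM within a group lay between 3.22% and 11.5%. Together the 9 genes took 0.137% to 0.155% of the counts in the piceatannol libraries and 0.0749% to 0.0803% in the control libraries.

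The genes with the nearest profiles to Plin2 and to G0s2 were found among 10087 named genes whose log2 CPM averaged 2 or more, as the smallest root mean square difference of centred log2 CPM over the 6 libraries. For Plin2 they were Ccdc57 (0.05), Mrps6 (0.05) and Metrnl (0.06), in log2 units. Metrnl, which encodes a secreted meteorin-like protein, had 358 ± 40.5 CPM with piceatannol and 123 ± 3.21 CPM in control (SD, n = 3 each). For G0s2 they were the phosphatase genes Ptpn18 (0.06) and Ptpro (0.09) and the transcription factor gene Nfatc2 (0.10). Nfatc2 had 15.3 ± 2.09 CPM with piceatannol and 117 ± 6.25 CPM in control (SD, n = 3 each). The log2 CPM values carry a prior count of 2, which draws the few G0s2 counts with piceatannol towards the middle, and the fitted log2 fold changes of these neighbours (-2.88, -3.08 and -2.94) were smaller in size than that of G0s2 (-3.58).

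Other genes of lipid storage are given from lists, by the rule for named genes. Of 22 genes of the droplet surface and droplet assembly, 16 were tested, of which 9 rose (56.25%) and 5 fell (31.25%). The 9 rises include Plin5, which passed the filter only through the piceatannol libraries. The shares over all genes tested were 38.8% and 38.3%. The median log2 fold change of the list was 0.37, also with Plin5 at its bound. Hilpda, which encodes a small droplet protein known as another inhibitor of adipose triglyceride lipase, had 364 ± 22.3 CPM with piceatannol and 17.3 ± 0.585 CPM in control (SD, n = 3 each). Its log2 fold change was 4.39 ± 0.07 (SE; adjusted p = 1.82e-20), so the gene of one inhibitor of the lipase rose while that of the other, G0s2, fell. Spart (listed as Spg20), of the droplet protein spartin, rose by 1.40 and Pcyt1a, of the enzyme that sets phosphatidylcholine supply for growing droplets, by 1.36 on the log2 scale. The droplet hydrolase gene Ldah (-0.68), the seipin gene Bscl2 (-0.36) and the droplet surface gene Aup1 (-0.31) fell.

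Of 20 other genes of triacylglycerol synthesis, 18 were tested, of which 11 rose (61.1%) and 2 fell (11.1%). The shares over all genes tested were 38.8% and 38.3%. The median log2 fold change of the list was 0.28. Lpin2, of a phosphatidate phosphatase that makes diacylglycerol for the DGAT enzymes, had 234 ± 12.5 CPM with piceatannol and 42.4 ± 1.14 CPM in control (SD, n = 3 each), a log2 fold change of 2.46. The glycerol-3-phosphate acyltransferase gene Gpat3 rose by 1.44, from a low level, and the fatty acid transport gene Slc27a4 by 0.84 on the log2 scale. The acyl-CoA synthetase gene Acsl5 fell by 1.78 on the log2 scale, to 90.6 ± 4.73 CPM with piceatannol against 311 ± 18.7 CPM in control (SD, n = 3 each). Agpat1, of a lysophosphatidate acyltransferase, fell by 0.23 on the log2 scale.

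Of 29 other lipases and regulators of lipolysis, 24 were tested, of which 12 rose (50%) and 7 fell (29.2%). The shares over all genes tested were 38.8% and 38.3%. The median log2 fold change of the list was 0.18. The fatty acid binding protein gene Fabp4, whose product is known to bind hormone-sensitive lipase, rose by 3.90 on the log2 scale, to 56.7 ± 8.05 CPM with piceatannol against 3.79 ± 0.449 CPM in control (SD, n = 3 each). Foxo1, of a transcription factor known in adipocytes to act on Pnpla2, rose by 1.78, and Abhd6, of another monoacylglycerol lipase, by 1.48 on the log2 scale. The glycerol channel gene Aqp3 fell by 4.47 on the log2 scale, to 0.52 ± 0.289 CPM with piceatannol against 12.3 ± 3.38 CPM in control (SD, n = 3 each). Prkar2a (-1.46) and Prkacb (-0.87), subunit genes of protein kinase A, which is known to phosphorylate hormone-sensitive lipase, also fell.

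Genes of cholesteryl ester, the other neutral lipid of droplets, and of lysosomal cholesterol export were listed together. They rose in all 6 cases tested of 7, with a median log2 fold change of 0.84. Among them were Soat2 (1.90), of an enzyme that makes cholesteryl ester, Npc1 (1.44), of lysosomal cholesterol export, and Nceh1 (0.62), of a cholesteryl ester hydrolase, as log2 fold changes. Lipe, whose product also cuts cholesteryl ester, is not in this list and fell (log2 fold change -1.83). Soat2 rose from a low level, 2.29 ± 0.0163 CPM in control, to 8.54 ± 1.2 CPM with piceatannol (SD, n = 3 each). Soat1, of another enzyme that makes cholesteryl ester, is named outside the rule. It had 349 ± 11.1 CPM with piceatannol and 230 ± 5.8 CPM in control (SD, n = 3 each), a log2 fold change of 0.60. Across all genes tested 38.8% rose and 38.3% fell.

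**Figure D4:**
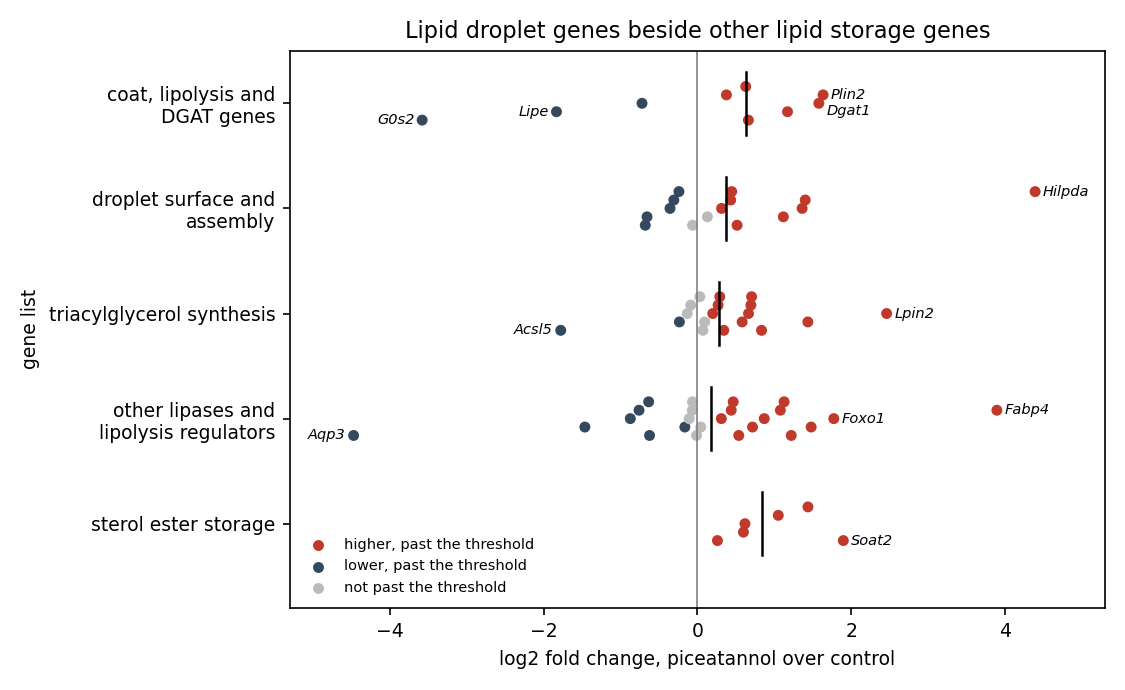
Log2 fold changes, piceatannol over control, of the tested genes of each list; red points are higher and dark blue points lower past the threshold, grey points are not past it, and black lines mark list medians. The median is 0.63 for the 9 genes described here and 0.84 for sterol ester storage; Plin5, with 0 counts in control, is not drawn but counts in its list's median.

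Markers of adipocytes, another cell type of marrow known for such genes, were near the limit of detection. None of the 8 adipocyte markers passed the filter, Lep had 0 counts in every library, and their summed level was 0.266 to 0.38 CPM with piceatannol and 0.182 to 0.423 CPM in control. Lipe alone averaged 35 ± 3.72 CPM with piceatannol and 125 ± 13.2 CPM in control (SD, n = 3 each). The part of adipocytes, or of any other cell type, in these values was not tested.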

How the data were processed

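For each library the authors deposited raw counts by gene symbol and, beside them, FPKM values. The submitters' processing notes name bcl2fastq, STAR, featureCounts, DESeq2, mm10 and GRCm38. The sources used here give no annotation, strand setting or FPKM scaling, so reads of overlapping antisense genes cannot be told apart.

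Piceatannol was tested against control on the counts of all genes with edgeR 4.0.16 in R 4.3.3: filterByExpr (minimum count 10; 15380 genes left), TMM factors, the robust quasi-likelihood test without covariates, two-sided, with Benjamini-Hochberg adjustment and a threshold of 0.05. The SE is the size of the log2 fold change over the square root of F. CPM is scaled by TMM; FPKM, as deposited, is used to compare genes. Ratios and lists carry no test. Replicate libraries were compared with each other, and every pair differed beyond sampling noise (chi-square per degree of freedom 9.88 to 18.1). Same-numbered libraries deviated together (r of 0.264, 0.172 and 0.221 between deviations from group means over 10450 genes). The numbers, taken from the sample titles, may thus pair the libraries, but the labels do not state such pairing. The main fit leaves it out, and the blocked fit is an alternative.

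The members and lists were chosen with earlier results of these data known. Named genes are the 9 members, up to 3 rises and 3 falls per list (largest change, past the threshold, mean log2 CPM of at least 0, no overlap), and 3 nearest profiles each to Plin2 and G0s2. Alternatives were RLE, upper-quartile and no scaling factors, no filter, a CPM of at least 5 in 3 libraries, DESeq2 1.42.0, limma 3.58.1 on voom values and on log2 of FPKM plus 1 or 0.1, the replicate block, no mitochondrially encoded genes, thresholds of 0.01 and 2-fold, and each library left out; ratios of counts in place of FPKM were added after seeing the data.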

Additional observations from a re-analysis of the deposited data

How the results depend on the processing

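The 6 rises and 3 falls were found under every alternative run, with 2 exceptions. With a limit of 2-fold, 3 members rose (Plin2, Plin3 and Dgat1) and 2 fell (Lipe and G0s2), and 5234 of all genes were called in place of 11846. With a CPM of at least 5 in 3 libraries, G0s2 was not tested. With the replicate number as a block, 6 members rose, 3 fell and 12012 genes were called, and the block changed no call of a member. Leaving out each library in turn kept 6 rises and 3 falls, with 11487 to 11880 genes called. The log2 fold change ranged over the alternatives from 1.57 to 1.72 for Plin2, from 0.28 to 0.44 for Mgll (adjusted p at most 0.0037) and from -3.84 to -0.84 for G0s2, whose smallest size came with a pseudocount of 1 on FPKM. Depth limits G0s2, with 8 counts in all with piceatannol, and the perilipin genes Plin1, Plin4 and Plin5. Of the values for single genes, lists and ratios, 1251 kept their side of the threshold or their size. A further 17 counts of lists moved by over 1.5 times. With the limit of 2-fold, the droplet surface list gave 5 rises and 0 falls in place of 9 and 5. Triacylglycerol synthesis gave 2 and 1 in place of 11 and 2, and the other lipases and regulators 6 and 2 in place of 12 and 7. Sterol ester storage gave 3 rises in place of 6, and the macrophage markers 4 falls in place of 8. At that limit 17.5% of all genes tested rose and 16.6% fell. The mast cell markers gave 2 falls in place of 1 without control replicate 2, without each piceatannol replicate and with no filter. Ratios of counts in place of FPKM, added after seeing the data, changed the ratios themselves, since counts are not divided by length. They could not move the log2 difference of a ratio between groups beyond rounding, since length and depth cancel in it. These ratios are therefore no check of those differences.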
